A study of Mus musculus with 6 samples.

Results

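A set of 9 genes of myelin and of the differentiated oligodendrocyte were followed across nuclear CAGE libraries of mouse embryonic stem cells (mESCs) and oligodendrocyte progenitor cells (mOPCs). The genes were listed by name, as Mbp, Cnp, Mag, Mog, Mobp, Opalin, Mal, Cldn11 and Ugt8a, by their known roles and with earlier results of these data in view. They were 9 of the 35312 annotated genes counted, of which 21938 are protein-coding. For each gene, the tags within 500 bp of any annotated 5′ end on the gene's strand were summed and scaled to the library total as CPM, the tags in every 1000000. CAGE counts 1 tag per capped RNA 5′ end, so a CPM does not depend on transcript length and levels can be set beside each other between genes.

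The study mapped contacts between RNA and chromatin in both cell types, and CAGE gave the transcription start sites and nuclear RNA levels that go with them. The 3 mESC libraries came from the R08 line, grown without feeder cells in serum with leukemia inhibitory factor at 1000 U/ml. The 3 mOPC libraries came from Oli-neu, a line of immortalised oligodendrocyte progenitors, kept in a proliferation medium with T3 at 340 ng/ml, thyroxine at 400 ng/ml, bFGF at 10 ng/ml and PDGF-BB at 1 ng/ml. No library was labelled as made from cells in a differentiation medium, and each cell type was 1 line, with replicates that the study defines as batches of cells at different passages. All 3 libraries of a cell type also carried the same library label in the deposited files, so cell line, medium and library preparation cannot be told apart. Totals ran from 16657021 to 40928704 tags, and 1 tag was worth between 0.0244 and 0.0600 CPM. A single position held 5.39% to 5.92% of all tags in the mOPC libraries and 0.508% to 0.668% in the mESC libraries.

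Myelin is a stack of oligodendrocyte membrane wrapped around an axon and pressed together into a lipid-rich sheath. Progenitors divide and carry proteoglycans and growth factor receptors on their surface. On leaving the cell cycle they switch on, under factors such as Olig2, Sox10 and Myrf, the lipid enzymes and proteins that build the sheath. Thyroid hormone is a classic inducer of this step and PDGF a classic mitogen of the progenitor.

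Of the 9 genes, 6 had more tags in mOPCs (Ugt8a, Mbp, Cnp, Opalin, Mog and Mag) and 3 had more in mESCs (Mobp, Mal and Cldn11). The low-count filter let 7 into the fit over 16707 genes with edgeR's quasi-likelihood test, and it called 6 higher in mOPCs and 1, Mobp, lower. Over all genes tested, 43.4% were called higher and 47.8% lower, or 91.2% in either direction, so a call alone sets no gene of the 9 apart. The CPM of the libraries did not overlap between the lines in any of the 7, a state in which mOPCs lay above in 44.6% of all genes tested and below in 46.8%. Opalin, Mag and Mog passed the filter through their mOPC counts and Mobp through its mESC counts, so a difference in these 4 followed from passing. The median log2 fold change of all genes tested was -0.12, and it was -0.05 with the library total alone and -0.21 with DESeq2's size factors, which is the baseline against which the values below stand. The p-values measure the spread between these libraries, which may be technical, and in a bulk library fewer cells of a type and less RNA per cell cannot be told apart.

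**Figure D1:**
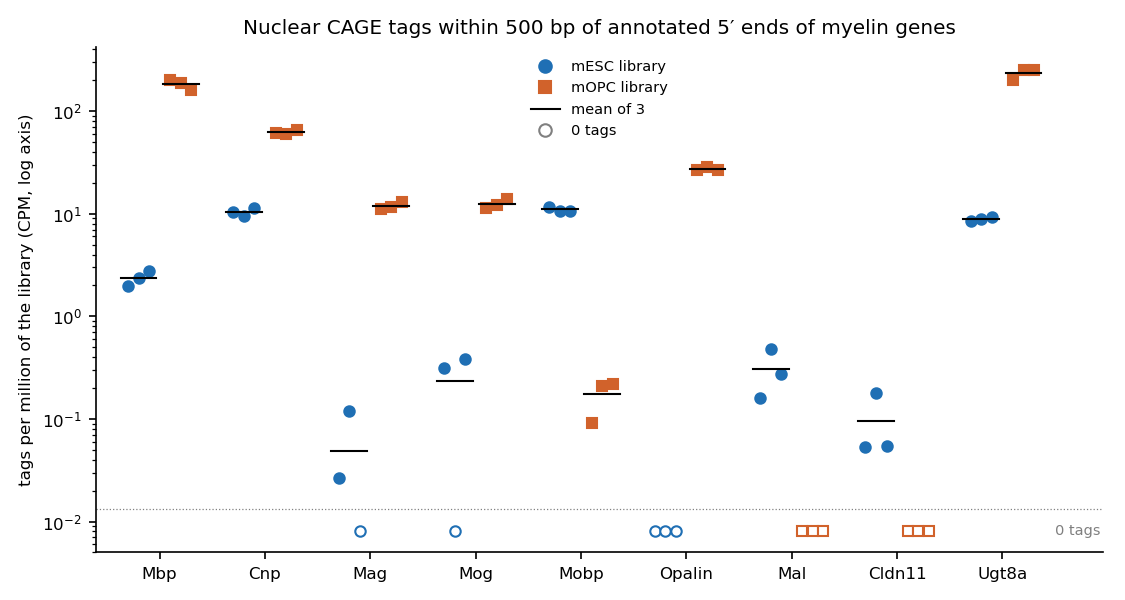
CPM of each of the 9 genes in every library on a log axis, with mESC libraries as circles, mOPC libraries as squares and the mean of 3 as a line. Open symbols below the dotted line are libraries with 0 tags. Mbp, Cnp and Ugt8a were present in both lines and higher in mOPCs, Opalin, Mag and Mog stood at 11.2 to 28.7 CPM in mOPCs and at 0.380 or less in mESCs, and Mobp, Mal and Cldn11 ran the other way.

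Levels spread over a wide range within each line. In mOPCs the order of the means was Ugt8a at 235 CPM, Mbp at 183, Cnp at 61.9, Opalin at 27.4, Mog at 12.5, Mag at 11.99 and Mobp at 0.173, with Mal and Cldn11 at 0 tags. The ranges of neighbours did not overlap, except Mog with Mag and the tie at 0. In mESCs the order was Mobp at 11.0 CPM, Cnp at 10.5, Ugt8a at 8.89 and Mbp at 2.35, followed by Mal, Mog, Cldn11 and Mag at 0.303 or less and Opalin at 0. There, Mobp and Cnp overlapped, as did each neighbouring pair from Mal downwards. At 1 CPM or more in all 3 libraries were 4 of the 9 genes in mESCs, where 57.0% of protein-coding genes reached this level, and 6 of the 9 in mOPCs, against 52.7%.

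Mbp encodes myelin basic protein, which holds the inner faces of compact myelin together. The gene (ENSMUSG00000041607) spans chr18:82475146-82585637 on the plus strand of mm10, with 16 annotated transcripts in 3 groups of 5′ ends. The distal group, from position 82475146 to 82475370, makes the Golli transcripts, which carry extra upstream exons and are found in cells outside the oligodendrocyte lineage as well. The proximal group, from 82554470 to 82554580 and 79324 bp further on, makes the myelin basic proteins proper. Over all groups, Mbp stood at 1.95, 2.34 and 2.77 CPM in the mESC libraries and at 199.9, 187 and 162 CPM in the mOPC libraries, with no overlap. The log2 fold change was 6.25 (SE 0.12), a 76.4-fold difference, with an adjusted p of 1.71e-68 in edgeR's quasi-likelihood test.

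The promoters of Mbp differed between the lines in opposite directions. The distal Golli promoter had 43, 21 and 26 tags in mESCs and 0, 0 and 0 tags in mOPCs. Measured against a floor of 3 tags over the pooled mOPC libraries, it was at least 37.7-fold lower in mOPCs. It passed the low-count filter through its mESC counts alone, so its call by edgeR followed from passing. The proximal promoter had 31, 18 and 25 tags in mESCs and 4363, 5359 and 6568 in mOPCs. On the CPM scale these were 0.818, 1.08 and 1.36 against 199, 186 and 161, a log2 fold change of 7.33 (SE 0.14) with an edgeR adjusted p of 4.52e-119. Over all 21819 promoters tested, 43.4% were called higher in mOPCs and 46.1% lower, and mOPC libraries lay above those of mESCs without overlap in 45.7% and below in 44.3%.

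Tags came from both Mbp promoters in mESCs and from the proximal one in mOPCs. The proximal share of the tags at these promoters was 41.9%, 46.2% and 49.0% in mESCs (45.7% ± 3.59, SD, n = 3), with exact 95% binomial intervals that together ran from 30.1% to 63.4% and cover counting error only. In mOPCs it was 100% in each library, with a lower limit of 99.92% or more. The difference of 54.3 percentage points had an exact two-sided permutation p of 0.1, the smallest that 3 against 3 libraries allow. The sum over the gene does not show this split.

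**Figure D2:**
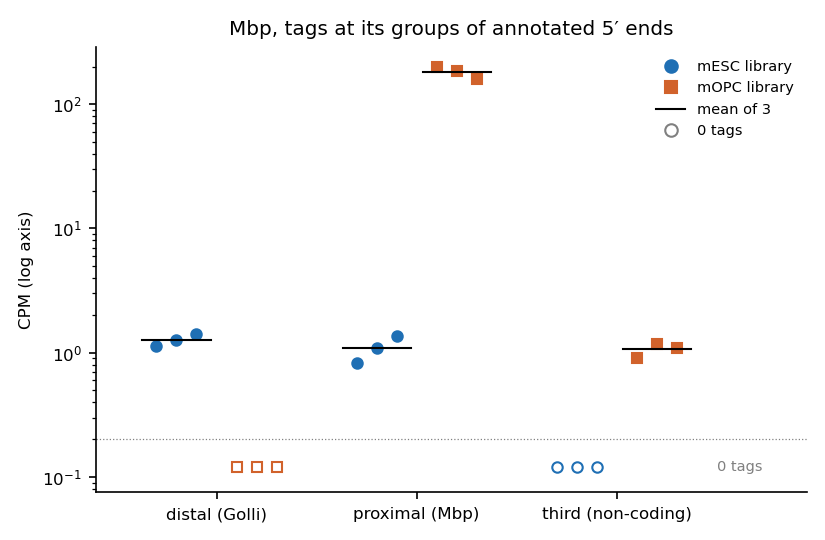
CPM at each group of annotated 5′ ends of Mbp on a log axis, for 3 mESC libraries (circles) and 3 mOPC libraries (squares), with lines at the means and open symbols for 0 tags. The distal promoter was seen in mESCs at 1.14 to 1.41 CPM and not in mOPCs, while the proximal one lay between 161 and 199 CPM in mOPCs.

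The third group of Mbp, a single 5′ end of a non-coding processed transcript at 82563262, had 0 tags in mESCs and 20, 34 and 45 in mOPCs. It passed the low-count filter through its mOPC counts alone, so its edgeR call as higher followed from passing. Its tags were scattered over 58 positions of the window, and the position with most held 10.1% of them. The window carried 19.98, 33.97 and 44.96 tags per kb in mOPCs, where the rest of the gene downstream of the proximal promoter carried 15.7, 22.8 and 33.4. The third group thus stood little above the tags that lay along the transcribed gene.

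Within the proximal promoter, mOPC tags were concentrated. Position 82554532, 2 bp downstream of the 5′ end of transcript Mbp-209, held 1995, 2603 and 3153 tags, or 47.4% ± 1.51 (SD, n = 3). It led the pooled mESC tags as well, on 18 of 74, with 6, 4 and 8 tags per library. In mESC replicate 2 position 82554469 had more, at 7 tags, and in replicate 1 position 82554479 also had 6. Nearest to the 5′ end of Mbp-215, at 82554470, lay 19, 10 and 12 mESC tags, and nearest to that of Mbp-209 lay 6, 5 and 8. In mOPCs these were 729, 827 and 990 tags for Mbp-215 and 2728, 3473 and 4224 for Mbp-209. Among 13423 protein-coding promoters with at least 20 tags in every mOPC library, 94.8% had a lower share at their leading position.

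Mobp, myelin-associated oligodendrocyte basic protein, is another small basic protein of compact myelin, and it ran against Mbp. The gene (ENSMUSG00000032517) lies at chr9:120149707-120181484 on the plus strand. It had 438, 178 and 198 tags in mESCs (11.6, 10.7 and 10.7 CPM) and 2, 6 and 9 tags in mOPCs (0.0912, 0.208 and 0.220 CPM). Every mESC library was above every mOPC library, the log2 fold change was -5.93 (SE 0.23), a 60.8-fold lower level in mOPCs, and the edgeR adjusted p was 3.39e-43. Mobp passed the low-count filter through its mESC counts, so this call followed from passing. In mESCs Mobp was the highest of the 9 genes on average, level with Cnp within the spread.

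The Mobp tags came from 1 promoter, and mostly from 1 base. The first group of its 5′ ends took 436, 178 and 198 of the mESC tags, the second had 0 tags in all 6 libraries, and the third had 2 tags in 1 mESC library. Position 120149741 held 315, 135 and 159 tags in mESCs, which was 72.2%, 75.8% and 80.3% of the promoter (76.1% ± 4.04, SD, n = 3). Of 13873 protein-coding promoters with enough tags in mESCs, 98.9% had a lower pooled share at their leading position, and the median was 18.5%. The same position led in mOPCs, with 10 of 17 pooled tags.

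The letters around this start were read from the RefSeq promoter table (GRCm38.p6, the mm10 assembly), which holds 250 bases before and 50 after each RefSeq start. Shown first is the stretch upstream of the first annotated 5′ end, chr9:120149492-120149706, plus strand, with CTTTGT in capitals. Shown second is chr9:120149713-120149742, with TATATA and the leading position plus the base after it in capitals.
Mobp upstream: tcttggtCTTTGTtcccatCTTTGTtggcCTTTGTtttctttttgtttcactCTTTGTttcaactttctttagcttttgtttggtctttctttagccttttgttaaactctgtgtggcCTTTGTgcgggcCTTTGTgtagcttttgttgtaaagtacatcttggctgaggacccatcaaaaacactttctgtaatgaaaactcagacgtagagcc
Mobp start: TATATAttcctcgtgtactgaggtcgccCA

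Both motifs were chosen after the letters had been seen. CTTTGT, with its reverse complement ACAAAG a form of the letters that SOX proteins favour, occurred 6 times. Of the 32851 promoters in the table, 18.7% held it at least once, and no other promoter held 6. TATATA, a form of the TATA box, began 28 bp upstream of the leading position, and 5.67% of promoters held it. These are matches of letters and show no binding.

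Cnp encodes 2′,3′-cyclic nucleotide phosphodiesterase, an enzyme of non-compact myelin that oligodendrocytes carry from an early stage. The gene (ENSMUSG00000006782) lies at chr11:100574904-100591729, plus strand. It stood at 10.4, 9.55 and 11.4 CPM in mESCs and at 60.6, 60.2 and 64.9 CPM in mOPCs, with no overlap. The log2 fold change of 2.499 (SE 0.10), or 5.65-fold, was the smallest of the 7 genes tested, with an edgeR adjusted p of 4.23e-42.

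Both lines began Cnp at the same base. Position 100574972, 68 bp downstream of the 5′ end of Cnp-201, held 49.1%, 49.1% and 43.8% of the tags in mESCs (47.3% ± 3.05, SD, n = 3) and 55.3%, 53.9% and 51.1% in mOPCs (53.4% ± 2.16, SD, n = 3). The ranges did not overlap, and the difference of 6.09 percentage points had an exact permutation p of 0.1, again the smallest possible. A further start was seen in mOPCs: nearest to the 5′ end of the processed transcript Cnp-202, at 100575891, lay 179, 199 and 454 mOPC tags against 1, 0 and 0 mESC tags. With it, the span that held the middle of the tags, from 10% to 90%, was 834 to 838 bp in the mOPC libraries and 32 to 37 bp in the mESC libraries. The tags of this further start are part of the totals behind the shares above, which lowers the mOPC shares. Shares of the main start alone were not tested.

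Mag, myelin-associated glycoprotein, is a sialic acid-binding adhesion molecule of the inner myelin membrane facing the axon. The gene (ENSMUSG00000036634) lies at chr7:30899176-30914873 on the minus strand. It had 1, 2 and 0 tags in mESCs and 246, 335 and 537 in mOPCs (11.2, 11.6 and 13.1 CPM). Against 3 pooled mESC tags the ratio was 297, with an exact 95% interval from 101 to 1440, and the edgeR adjusted p was 6.51e-43. Mag passed the low-count filter through its mOPC counts, so this call followed from passing. Without mESC replicate 2 the fitted log2 fold change went from 7.98 to 8.97.

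Mag started broadly in mOPCs. Its leading position held 9.92% ± 2.29 of the tags (SD, n = 3), and the positions next in order held 9.73% ± 1.10 and 8.39% ± 1.75. Between 10% and 90% of the tags lay within 82 to 89 bp.

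Mog, myelin oligodendrocyte glycoprotein, is an immunoglobulin-type protein of the outermost myelin surface and appears late in differentiation. The gene (ENSMUSG00000076439) lies at chr17:37010743-37023398 on the minus strand. It had 12, 0 and 7 tags in mESCs (0.317, 0 and 0.380 CPM) and 248, 352 and 573 in mOPCs (11.3, 12.2 and 14 CPM). The groups did not overlap, and the log2 fold change was 5.51 (SE 0.25, edgeR adjusted p = 1.66e-30). Mog passed the low-count filter through its mOPC counts, so this call followed from passing. Its mOPC level overlapped that of Mag, and its leading position held 12.7% ± 2.17 of the tags.

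Opalin, also called Tmem10, is a transmembrane sialoglycoprotein of oligodendrocytes. The gene (ENSMUSG00000050121) lies at chr19:41061710-41077113 on the minus strand. It had 0 tags in all 3 mESC libraries and 589, 828 and 1089 in mOPCs (26.9, 28.7 and 26.6 CPM). Against the floor of 3 pooled tags it was at least 665-fold higher in mOPCs, with an edgeR adjusted p of 5.24e-54. Opalin passed the low-count filter through its mOPC counts alone, so this call followed from passing. Over all protein-coding genes, 24.6% had 0 tags in the 3 mESC libraries.

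The Opalin tags formed clusters about 40 bp apart. Position 41077073, 40 bp downstream of the 5′ end of Opalin-201, held 181, 276 and 336 tags (31.7% ± 1.41, SD, n = 3). Position 41077114, directly before the annotated 5′ end, held 67, 97 and 107 (11.0% ± 1.00, SD). The 10% to 90% width was 71 bp in each mOPC library. The second annotated 5′ end, of a transcript with a retained intron, had 2, 0 and 3 tags in mOPCs.

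Cnp, Mag and Opalin share letters that the choice of genes did not use. CTGGCAC, or GTGCCAG on the other strand, is a form of the site of Myrf, the transcription factor that drives myelin genes. It occurred once in the window of each of these 3 genes (for Mag, which has 3 windows, at 1 place shared by 2 of them), in none of the windows of Mog, Mobp, Mal, Cldn11 and Ugt8a, and in 5.01% of all promoters. The windows of Mal and Ugt8a, and of Mog for mOPCs, stopped short of the leading position. The letters at those starts were not searched. The motif was chosen after the letters were seen, and Mbp was not searched. It is in capitals below, and for Mag the leading position and the base after it are in capitals too, as they are in the run around the Cnp start.
Cnp CTGGCAC: gaccgctgcttcCTGGCACtcaggtttcca
Cnp start: gcgtgggggggcccCGgacacccggagacg
Mag CTGGCAC: ggcggcccCTGGCACccagggggCAgagga
Opalin CTGGCAC: gagacaaagacctgcaGTGCCAGtgagaga

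These runs lie at chr11:100574846-100574875 and chr11:100574958-100574987 on the plus strand, and at chr7:30914910-30914939 and chr19:41077064-41077093 on the minus strand. From the first base of the motif to the leading position it was 114 bp in Cnp, 15 bp in Mag and 4 bp in Opalin, where the leading position lay inside the match. A match is no evidence of binding.

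Mal, a tetraspan proteolipid of raft-like membranes, and Cldn11, the claudin of the tight junctions between myelin layers, were near the detection limit. Mal (ENSMUSG00000027375, chr2:127633226-127656695, minus strand) had 6, 8 and 5 tags in mESCs (0.158, 0.480 and 0.271 CPM) and 0 in each mOPC library. Cldn11 (ENSMUSG00000037625, chr3:31149920-31164324, plus strand) had 2, 3 and 1 tags in mESCs and 0 in each mOPC library. Neither passed the filter. Against the floor of 3 pooled mOPC tags, Mal was at least 7.96-fold and Cldn11 at least 2.51-fold lower in mOPCs, and 30.7% of protein-coding genes had 0 tags in all 3 mOPC libraries.

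Tags of Cldn11 were nonetheless found in mOPCs further along the gene. Away from its 5′ end, inside the gene and on its strand, there were 7, 13 and 16 tags in mOPCs and 1, 0 and 0 in mESCs. A window from 2400 to 2600 bp downstream of the annotated start, within the first intron and chosen after the tags were seen, held 6, 3 and 10 of these in mOPCs and none in mESCs. They fell on 3, 3 and 10 positions, with 2, 1 and 2 tags on the other strand. Mal had 1, 1 and 0 such tags in mOPCs.

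Ugt8a encodes ceramide galactosyltransferase, which makes galactosylceramide, the signature lipid of myelin. The gene (ENSMUSG00000032854) lies at chr3:125865271-125938619 on the minus strand. It had 8.499, 8.89 and 9.28 CPM in mESCs and 202, 251 and 251 CPM in mOPCs, with no overlap, and it was the highest of the 9 genes there. The log2 fold change was 4.66 (SE 0.11), or 25.4-fold, with an edgeR adjusted p of 2.08e-60.

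Ugt8a had a dispersed promoter in both lines. The leading position in mESCs held 7.82% ± 2.72 of the tags, and that in mOPCs 8.70% ± 0.235 (SD, n = 3 each), and tags fell on 541 positions in the pooled mOPC libraries. In mESCs 5.49%, and in mOPCs 9.73%, of promoters had a lower pooled share at their leading position, so Ugt8a was among the least focused. The 10% to 90% width was 150 to 177 bp in mESCs and 134 to 140 bp in mOPCs. The base with most tags was 125938552 in mESCs and 125938568 in mOPCs. The share at 125938552 was 7.82% ± 2.72 in mESCs and 7.12% ± 1.56 in mOPCs, overlapping ranges with an exact permutation p of 0.6.

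Among the 8 of the 9 genes whose windows were read, all but Mbp, Ugt8a had the window richest in CpG. Its 300-base window had 78.3% G and C and a CpG content of 0.974 of that expected from its bases, above that of 92.5% of promoters. The windows of Mag, Opalin and Mog had 0.101 to 0.194 of the expected CpG, against a median of 0.384 over all promoters, and Mobp had 0.364, Mal 0.423, Cnp 0.638 and Cldn11 0.730. The Ugt8a window ended at 125938603, short of its leading positions at 125938552 in mESCs and 125938568 in mOPCs. That of Mog ended at 37023349, short of its leading mOPC position at 37023302. The Mal window ended at 127656646, and its leading mESC position was 127656219. These values thus describe the windows read, and not all the bases where tags began. A stretch upstream of the RefSeq start, chr3:125938653-125938772, minus strand, is printed with the GC box letters GGGCGG in capitals. This motif occurred 3 times in the Ugt8a window, with one pair overlapping by 2 bases, and 35.7% of promoters held it or its reverse complement.
Ugt8a upstream: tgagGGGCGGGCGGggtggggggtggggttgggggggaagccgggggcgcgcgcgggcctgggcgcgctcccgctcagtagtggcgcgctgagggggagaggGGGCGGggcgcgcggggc

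The second annotated 5′ end of Ugt8a, at 125915885, had 0 tags in mESCs and 12, 14 and 27 in mOPCs. That is 11.99, 13.99 and 26.97 tags per kb, where the rest of the gene downstream of the first promoter had 10.9, 16.4 and 23.3. The edgeR fit over promoters called it higher in mOPCs. It passed the low-count filter through its mOPC counts alone, so this call followed from passing. Its tags were no denser than those along the gene in replicate 2, and denser by a small margin in the others.

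**Figure D3:**
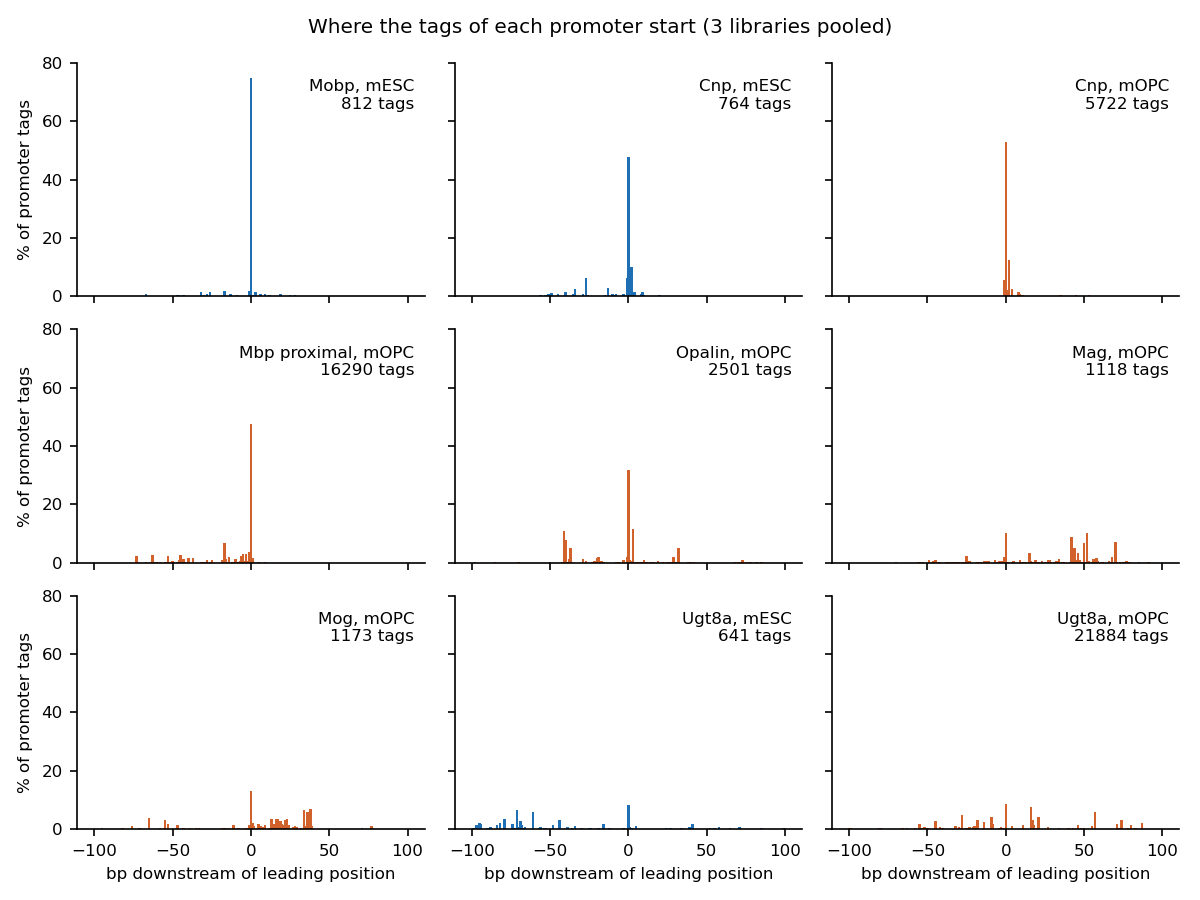
Tags of each promoter, 3 libraries pooled, as a percent of the promoter's tags (bars) by distance in bp downstream of the position with most tags, with mESCs in blue and mOPCs in orange. Mobp in mESCs stood on 1 position with 75.0% of its tags, Cnp and the proximal Mbp promoter on 1 position with 47.6% to 52.9%, and Mag, Mog and Ugt8a were spread. The further start of Cnp in mOPCs lies beyond the distances drawn, and its tags are part of the Cnp total.

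In shape, then, 7 of the 9 genes divided into focused starts (Mobp, Cnp and proximal Mbp), an intermediate one (Opalin at 31.7%) and dispersed ones (Mog, Mag and Ugt8a), while Mal and Cldn11 had too few tags to be placed. The median leading share was 18.5% in mESCs and 17.5% in mOPCs over all promoters with enough tags. In mOPCs 84.1% of these promoters had a lower pooled share than Opalin, 30.15% than Mog and 16.1% than Mag. The grouping is thus relative to the other genes of the set. On pooled tags, the starts of Mobp, Cnp and Mbp were led by the same base in both lines. Mobp was higher in mESCs and the other genes in mOPCs. For Mbp in mESCs the tags were few, and another base led in replicate 2. Transcription usually begins on a purine that follows a pyrimidine. Over the promoter table, 64.4% to 67.8% of tags were placed on a pyrimidine followed by a purine, as in the CA of Mobp, and 6.82% to 7.85% on a purine that a pyrimidine preceded. The cause of this offset of 1 base was not tested, and positions are given here as deposited.

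The other genes of the sheath gave a mixed picture. Of 32 further myelin and oligodendrocyte genes, 27 were tested, and 17 were higher and 9 lower in mOPCs (median log2 fold change 2.91, against 43.4% and 47.8% of all genes called and a median of -0.12). Gjc3, a connexin of oligodendrocytes, had 3 pooled tags in mESCs and 639, 622 and 688 CPM in mOPCs (log2 fold change 13.73, and 14.68 without mESC replicate 3), and Omg, the oligodendrocyte myelin glycoprotein, had 0 tags in mESCs and 49.6 to 54.5 CPM in mOPCs. Enpp6, a choline phosphodiesterase of newly formed oligodendrocytes, had 0 tags in mESCs and 11.9 to 15.4 CPM in mOPCs. Lower in mOPCs were Car2, carbonic anhydrase 2 (68.2, 68.9 and 60.5 CPM in mESCs, 1 pooled tag in mOPCs), Ppp1r14a, an inhibitor of myosin phosphatase (710 pooled tags against 1), and Cntn2, a contactin of the juxtaparanode (431 pooled tags against 0). The lone tags of Car2 and Ppp1r14a were both in mOPC replicate 2, without which these genes were at 0. In this list and those below, tested genes near 0 tags in 1 line passed the low-count filter through the other. The direction of their calls followed from passing.

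Genes of galactolipid synthesis and turnover were called in both directions, with shares near those over all genes. All 14 were tested, 7 were higher and 6 lower, against 43.4% and 47.8% of all genes tested, and the median log2 fold change was 0.19. Higher in mOPCs were enzymes that act beside Ugt8a on the same lipid: Gal3st1, which sulfates galactosylceramide to sulfatide, stood at 0.591 ± 0.153 CPM in mESCs and 58.8 ± 4.31 in mOPCs (log2 fold change 6.47, SE 0.16), and Fa2h, which hydroxylates its fatty acid, at 3.71 ± 0.830 and 31.4 ± 3.27 (2.99, SE 0.13; SD, n = 3 throughout). Galc, which breaks galactosylceramide down and is named after its values were seen, was lower, at 23.38, 22.81 and 24.80 CPM in mESCs and 17.79, 20.74 and 19.84 in mOPCs (-0.34, SE 0.10). Psap, the precursor of the saposins that help to degrade sphingolipids, had a log2 fold change of 1.87 (SE 0.09). Lower in mOPCs were Elovl6, a fatty acid elongase (-2.15, SE 0.09), Sptlc2, a subunit of the enzyme that starts sphingolipid synthesis (-1.54, SE 0.08), and Kdsr, which acts in the step after it (-0.47, SE 0.08).

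Transcription factors of differentiation were mostly higher in mOPCs, with 9 of 11 tested higher and 1 lower (median log2 fold change 4.61), against 43.4% and 47.8% of all genes tested. Olig2 had 3 pooled tags in mESCs and stood at 425 ± 11.4 CPM in mOPCs, Sox10 at 0.810 ± 0.131 and 337 ± 8.42, and Olig1 at 0.581 ± 0.0360 and 97.3 ± 12.9. Myrf differed least of those named, at 47.5, 46.0 and 46.0 CPM in mESCs and 80.2, 74.1 and 85.5 in mOPCs (log2 fold change 0.72, SE 0.09, edgeR adjusted p = 2.01e-12). Nkx6-2, a homeodomain factor of oligodendrocytes, had 97 pooled tags in mESCs and 0 in mOPCs. Nkx2-2 had 0 tags in mOPCs as well and was not tested. Olig2 passed the low-count filter through its mOPC counts and Nkx6-2 through its mESC counts, so the direction of these calls followed from passing.

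Inhibitors of differentiation were present in mOPCs at the same time. Of 10 tested, 7 were higher and 3 lower, against 43.4% and 47.8% of all genes tested, with a median log2 fold change of 1.89. Sox6, which holds progenitors back, stood at 0.804 ± 0.0207 CPM in mESCs and 893 ± 71.1 in mOPCs (log2 fold change 10.03, SE 0.15). Gpr17, a receptor of committed precursors that delays maturation, had 0 tags in mESCs and 121, 120.4 and 132 CPM in mOPCs, and Lingo1, a membrane protein that restrains myelination, had a log2 fold change of 3.599 (SE 0.17). Bmp4 (12710 pooled mESC tags and 0 in mOPCs), Id4 (-3.22, SE 0.18) and Hes1 (-2.91, SE 0.10) were lower in mOPCs. All 10 markers of progenitors were higher in mOPCs (median log2 fold change 8.77). The differences were not all large. Pdgfra, a PDGF receptor named after its values were seen, stood at 5.51 CPM in mESCs and 8.33 in mOPCs (0.53, SE 0.14). The extracellular matrix protein Tnr stood at 1007 ± 57.9 CPM in mOPCs, Lhfpl3 at 436 ± 13.6 and the sialidase Neu4 at 16.5 ± 2.62, with 0, 1 and 0 pooled tags in mESCs.

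Of 11 tested genes of the thyroid hormone response, 8 were higher and 3 lower in mOPCs, against 43.4% and 47.8% of all genes tested, with a median log2 fold change of 1.06. The receptors Thra and Thrb had log2 fold changes of 3.06 (SE 0.10) and 6.11 (SE 0.17), and Hr, a corepressor induced by the hormone in brain, stood at 1.85, 1.801 and 1.90 CPM in mESCs and 162, 156 and 151 in mOPCs (6.33, SE 0.12). Without mESC replicate 1 the value of Thrb was 6.76. Klf9, another target of the hormone, was lower in mOPCs, at 793, 829 and 694 CPM in mESCs and 137, 147 and 152 in mOPCs (-2.48, SE 0.09). Dio3, which inactivates the hormone, had 249 pooled tags in mESCs and 1 in mOPCs, in replicate 1, and Ncor1, a corepressor, was lower (-1.16, SE 0.08).

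Markers of other cells were read in the same libraries, where 43.4% of all genes tested were called higher in mOPCs and 47.8% lower. All 9 pluripotency markers were lower in mOPCs. Dppa5a, Pou5f1 and Zfp42 stood at 1140 ± 121, 1007 ± 66.9 and 628 ± 13.7 CPM in mESCs and, with 3 more of the list, at 0 tags in mOPCs, where Klf4 kept 19.4 ± 3.32 CPM. Of the Schwann cell list 7 of 8 were tested, with 5 higher in mOPCs and 2 lower, and its sum was 161 to 173 CPM in mOPCs and 26.7 to 29.1 in mESCs. Pmp22 stood at 111 ± 4.18 CPM in mOPCs, Cdh19 at 31.2 ± 0.564, Prx at 14.1 ± 1.10, which was lower than in mESCs, and Drp2 at 1.70 ± 0.235.

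Of the astrocyte list 7 of 8 were tested, with 5 higher and 2 lower, and its sum was 299.8 to 324 CPM in mOPCs and 119 to 133 in mESCs. Slc1a2 of this list is also among the mOPC markers that the study collected, so it does not mark astrocytes alone. S100b stood at 206 ± 5.45 CPM in mOPCs, Slc1a3 at 89.5 ± 6.81, Slc1a2 at 14.02 ± 1.01 and Sox9 at 2.98 ± 0.686, while Gja1 and Aldh1l1 had 1 and 2 pooled tags and Aqp4 had 0. These few tags lay in mOPC replicate 1 for Gja1 and replicate 2 for Aldh1l1, and the 2 mESC tags of S100b and 1 of Slc1a2 in mESC replicate 1, without which each gene was at 0. Of the neuron list 7 of 8 were tested, with 2 higher, Syt1 at 88.4 ± 11.0 CPM and Elavl3 at 18.5 ± 2.35, and 5 lower, and the sum was 109 to 127 CPM in mOPCs and 301 to 328 in mESCs. Rbfox3, Snap25 and Stmn2 were at 0 in mOPCs. Of the microglia list 2 of 7 were tested, both higher, with Tmem119 at 1.97 ± 0.444 CPM and Cx3cr1, Csf1r, C1qa and Itgam at 0 in mOPCs. The other gene tested, P2ry12, had 0 tags in mESCs and 0.872 ± 0.210 CPM in mOPCs. It passed the low-count filter through its mOPC counts alone, so its call followed from passing. The part of these markers in the levels of the myelin genes was not tested.

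The genes whose levels over the 6 libraries came nearest to those of the 4 highest members were named by the distance of log2(CPM + 0.5), among 21929 protein-coding genes. For Ugt8a these were Nsmf (distance 0.387) and Zeb2 (0.398), for Mbp Dclk1 (0.408) and Hmgn3 (0.467), for Cnp Parp12 (0.213) and Haghl (0.256), and for Opalin Kcnj9 (0.152) and Lrrc4c (0.184). Zeb2, at 226 ± 11.4 CPM in mOPCs against 235 ± 28.4 for Ugt8a, is itself a factor of oligodendrocyte differentiation. With 2 conditions, such a distance measures mostly the level in each line.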

How the data were processed

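Nuclear RNA of 3 mESC and 3 mOPC cultures was measured by CAGE. The authors deposited, for each library, counts of tags per genomic position and strand on mm10, unnormalised. The submitters' processing notes name CASAVA 1.8 and BWA 0.5.9, while the study's methods name bowtie and CAGEr for these data, and which aligner made the files was not settled. Tags without molecular identifiers are not independent molecules, so intervals and floors cover counting error only. The members and gene lists were chosen with earlier results of these data known.

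Tags within 500 bp of the 5′ ends of GENCODE vM21 genes, protein-coding or long non-coding, were summed. 5′ ends of a gene at most 1000 bp apart formed 1 promoter. The counts were tested with edgeR 4.0.16 in R 4.3.3 (TMM factors on library totals, filterByExpr, robust quasi-likelihood test, Benjamini-Hochberg adjustment over all features, adjusted p under 0.05). On simulated counts for 16707 genes with 200 changed by 2 on the log2 scale, 197 were recovered and 6 of 203 calls were false. In the data 91.2% of all genes tested were called. How the fit performs with so large a share changed was not tested. Shares were compared by exact two-sided permutation over libraries (scipy 1.17.1), and shapes needed 20 tags in every library. From each list the text names the 3 called genes with the largest change in each direction at 1 CPM or more, Myrf, Sox10 and Klf9, and markers of other cells at 10 CPM or more. Alternatives were other scalings, no filter, DESeq2 1.42.0, the replicate number as a block, each library left out, a 100 bp window, all tags inside the gene, coding 5′ ends alone and shared tags left out. The RefSeq promoter table had windows for 8 of the 9 genes used here. Mbp sequence and 1 gene that the naming rule also covers are not reported here.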

Additional observations from a re-analysis of the deposited data

How the results depend on the processing

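All 7 genes tested and the distal and proximal Mbp promoters kept their direction and their call under each alternative run. The third Mbp promoter and the second of Ugt8a did not pass the filter with a 100 bp window and were not tested there, so that the promoters of the 9 genes called higher went from 8 to 6, and they kept their call under the others. Some counts moved by more. The number of the 9 genes called lower in mOPCs went from 1 to 3 without the low-count filter and to 2 with DESeq2, through Mal and Cldn11, and their promoters called lower went from 2 to 4 without the filter. Differentiation factors called lower went from 1 to 3 without the filter, to 2 with DESeq2 and to 2 with a 100 bp window. The difference in the Ugt8a leading share, -0.70 percentage points, was reversed when 1 library was left out and then ranged from -2.27 to 0.18. Values of genes with few tags in a line were less stable: Mag had a log2 fold change of 7.98, of 8.97 without mESC replicate 2, of 9.26 within 100 bp and of 4.24 with all tags inside the gene. With all tags inside the gene, Mog went from 5.51 to 4.13 and Ugt8a from 4.66 to 5.74, since tags along the gene then count. Counting all tags inside the gene moved 32 of 65 named values by over 1.5 times, and a 100 bp window moved 9 of 69, Hr from 6.33 to 12.15 among them. Coding 5′ ends alone moved 4 of 65, with Hes1 from -2.91 to -8.52, and another scaling moved none of 72. The cause of the other changes was not tested.

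The replicate numbers did not pair the libraries: deviations of libraries with the same number correlated at -0.00329, 0.0597 and 0.0064 over genes. With the replicate number as a block the calls of the 9 genes were the same, 6 higher and 1 lower, and 7224 and 7995 of all genes were called higher and lower.

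Depth limits the low genes: 3 tags, the limit that a count of 0 allows, were worth 0.0733 to 0.180 CPM in a single library, and 0.0411 CPM over the pooled mESC and 0.0327 over the pooled mOPC libraries. A level below the pooled limit was not detectable for Opalin in mESCs or for Mal and Cldn11 in mOPCs.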
